A study of Mus musculus with 12 samples.

Results

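The mitochondrial ribosomal proteins are encoded in the mouse nucleus by genes whose symbols begin with Mrpl or Mrps. They were described here in epididymal white adipose tissue (eWAT), the visceral fat pad beside the epididymis, of mice fed a high-fat diet with or without a herbal supplement. Members were the genes of the deposited expression table whose mouse Ensembl identifier carries a symbol made of Mrpl or Mrps, a number and at most 1 further letter, which gave 77 of 23474 identifiers. The rule itself uses no measured value, although it was chosen with earlier results of these data known. Of the 78 genes that the annotation names by this rule, Mrpl33 was not analysed here. Mrpl2 and Mrpl17, both homologs of bacterial ribosomal proteins, were listed at 0 in all 12 libraries, as were 1555 of 21021 protein-coding identifiers. The other 75 members had a mean of at least 1 FPKM in each of 4 comparisons and were tested in all of them.

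All mice were male C57BL/6J, 17 weeks old at the end of 12 weeks of feeding, and differed only in diet. The ND group received a normal diet and the HFD group a high-fat diet. The GT group received the same high-fat diet with 0.25% (w/w) of an ethanol extract of green tea, and the TJ group the high-fat diet with 3% (w/w) of Taeeumjowitang, a multi-herb preparation of Korean traditional medicine. Total RNA of whole eWAT was sequenced in 3 libraries per group, and the values are FPKM, which divide the fragments of a gene by its transcript length and by the sequencing depth.

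Mitochondria carry ribosomes of their own, which translate the few messenger RNAs of mitochondrial DNA into membrane subunits of the respiratory chain and ATP synthase. Their ribosomal RNAs are made inside the organelle, whereas their proteins are encoded in the nucleus, made in the cytosol and imported. The small subunit reads the messenger RNA and the large subunit joins the amino acids. Some of the proteins descend from bacterial ribosomal proteins and others are found in mitochondria and not in bacteria. White adipocytes use mitochondria to oxidise fuel and to supply precursors for fat synthesis.

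The libraries were not alike. ND replicate 1 stood apart from the other 11 libraries. Its FPKM values summed to 1002770 against 527904 to 725245, its approximate depth was 9.7M fragments against 14.7M to 20.7M, and 7 germ cell markers (protamines, transition proteins and other sperm genes) summed to 98653 FPKM in it against 0.685 to 2890 in the others. Counts, medians and single fold changes of HFD against ND are therefore also given without this library, apart from those with a trend removed. All 8 adipocyte markers and all 8 macrophage markers reached 1 FPKM in every HFD and TJ library. The summed adipocyte markers ranged from 17234 to 19646 FPKM in the HFD group and from 29305 to 59285 in the TJ group, and the summed macrophage markers from 3811 to 5608 and from 736 to 2512. In bulk tissue fewer cells of a type and less RNA per cell cannot be told apart. FPKM also differed between libraries by transcript length: the slope of a gene's deviation from its 12-library mean on log2 transcript length was -0.863 in ND replicate 1, -0.206 in TJ replicate 2 and between -0.023 and 0.193 in the others.

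Measured as deviation from the 12-library mean on the log2(FPKM + 1) scale, the median member stood at 0.75 in ND replicate 1 and at -0.05 and -0.34 in ND replicates 2 and 3. It stood at -0.07, -0.29 and -0.20 in the HFD libraries, at -0.12, -0.24 and -0.28 in the GT libraries and at 0.23, 0.71 and 0.00 in the TJ libraries. Each TJ library was thus above each HFD and each GT library, and ND replicate 1 was the highest of all. The share of each library's total FPKM taken by the members ran from 0.309% to 0.355% in the HFD group, 0.297% to 0.336% in the GT group and 0.360% to 0.473% in the TJ group. ND replicate 1 held the highest of the 12 values for 38 members and TJ replicate 2 for 28. Without ND replicate 1, TJ replicate 2 held the highest of the remaining 11 for 60.

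**Figure D1:**
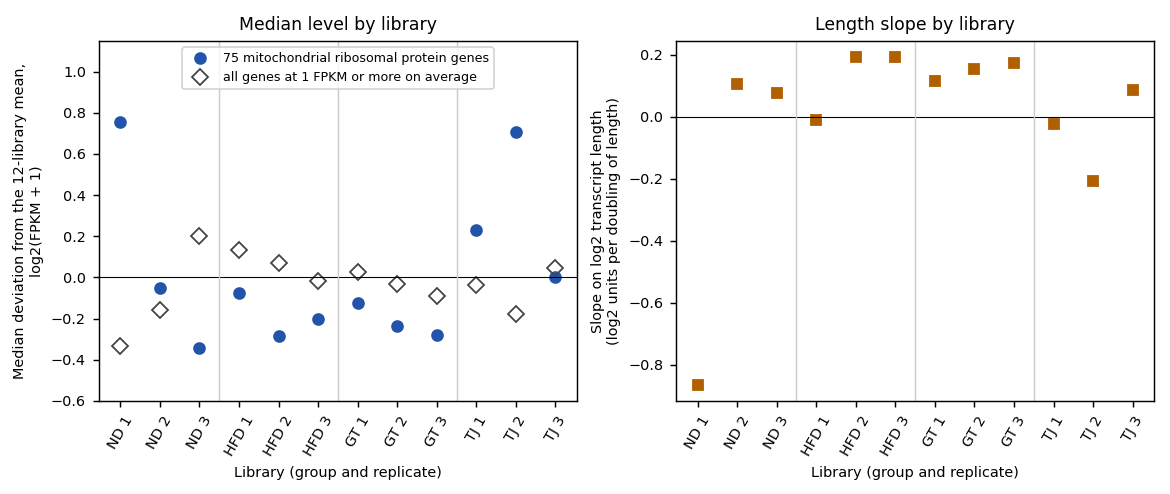
Left, median deviation from the 12-library mean on the log2(FPKM + 1) scale in each library, for the 75 mitochondrial ribosomal protein genes (circles) and for all genes at 1 FPKM or more on average (diamonds). Right, slope of a gene's deviation on log2 transcript length in each library, which was -0.863 in ND replicate 1 and -0.206 in TJ replicate 2. The members were highest in ND replicate 1 and TJ replicate 2, the libraries with the lowest slopes.

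Levels of the members, compared per length as FPKM, spanned more than an order of magnitude within every group. In the HFD group the means ran from 3.70 FPKM for Mrpl47, a large subunit protein, to 126 for Mrpl48, with a median of 19.7. The GT group had the same members at its ends, at 2.21 and 86.6 FPKM, and a median of 18.9. In the TJ group the lowest mean was 3.57 FPKM for Mrpl19, the highest 133 for Mrps6 and the median 31.1. In the ND group the median was 25.2 FPKM with all 3 libraries and 19.2 without replicate 1. Mrpl52, a large subunit protein without a bacterial counterpart, shows how far that library reaches: at 653, 49.8 and 41.6 FPKM in the ND libraries it had the highest ND mean, and without replicate 1 that place went to Mrps21 at 78.4 FPKM.

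The comparison of the TJ with the HFD group asked what the supplement changed in fat tissue under the same high-fat diet. The genes of the mitochondrial ribosome stood mostly higher in the TJ group: 67 of 75 members had a log2 fold change above 0, against 5223 of 12807 genes tested, and their median was 0.48 against -0.14 for all genes. In the limma test, 15 members were called higher and 0 lower, where a call required an adjusted p under 0.05 over all genes and a fold change of at least 1.5. Of the 15, 8 belong to the large subunit and 7 to the small. The background was 7.41% of all genes called higher and 11.1% called lower, so that the share of members called higher, 20%, was above the first, and none was called lower. Median-of-ratios scaling, which called 1285 genes higher and 1085 lower against 949 and 1417 as deposited, gave 17 members higher and 0 lower. At an unadjusted p under 0.05, 44 members were higher and 0 lower, against 16.4% and 24.9% of all genes. All 3 TJ libraries were above all 3 HFD libraries for 45 members, against 20.1% of all genes. All 3 were below for Mrps22, Mrpl19 and Mrpl3, against 31.4% of all genes. Summed adipocyte markers were higher and summed macrophage markers lower in the TJ libraries, over the ranges given above. Of the 8 adipocyte markers 7 had a log2 fold change above 0. The other stood at -0.96, with all its TJ libraries below all its HFD libraries. All 8 macrophage markers were below 0. Summed stromal progenitor markers were 75.3 to 80.6 FPKM in the HFD libraries and 28.6 to 39.3 in the TJ libraries, and summed germ cell markers 28.8 to 2020 and 0.685 to 9.19. HFD replicate 2 also held 1188 FPKM of epididymal epithelium markers, against at most 11.9 in the TJ libraries. The part of these markers in the counts was not tested.

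The count depended on the libraries and the settings of the fit. Without TJ replicate 2, the library with the highest member levels in that group, 12 of the 15 members were still called, the median fell from 0.48 to 0.30, 62 members were above 0, and at an unadjusted p under 0.05 32 were higher and 1 lower. In that fit 797 genes of the whole table were called higher and 1226 lower, against 949 and 1417 with all libraries. Without TJ replicate 3 the count was 35, and 1245 genes of the whole table were called higher and 2167 lower. Without TJ replicate 1 or any 1 of the HFD libraries it was 0, and in those fits no gene of the whole table was called either. It was also 0 with no filter on low values and with all 12 libraries in the fit, and 2, Mrpl53 and Mrps15, with the replicate number as a block. The 44 members higher at an unadjusted p under 0.05 became 22 without HFD replicate 2, 26 without HFD replicate 3, 27 without TJ replicate 1 and 12 with all 12 libraries in the fit. Over all genes, both directions together, 5299 had an unadjusted p under 0.05, and in these fits 3837, 3732, 4233 and 2183.

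**Figure D2:**
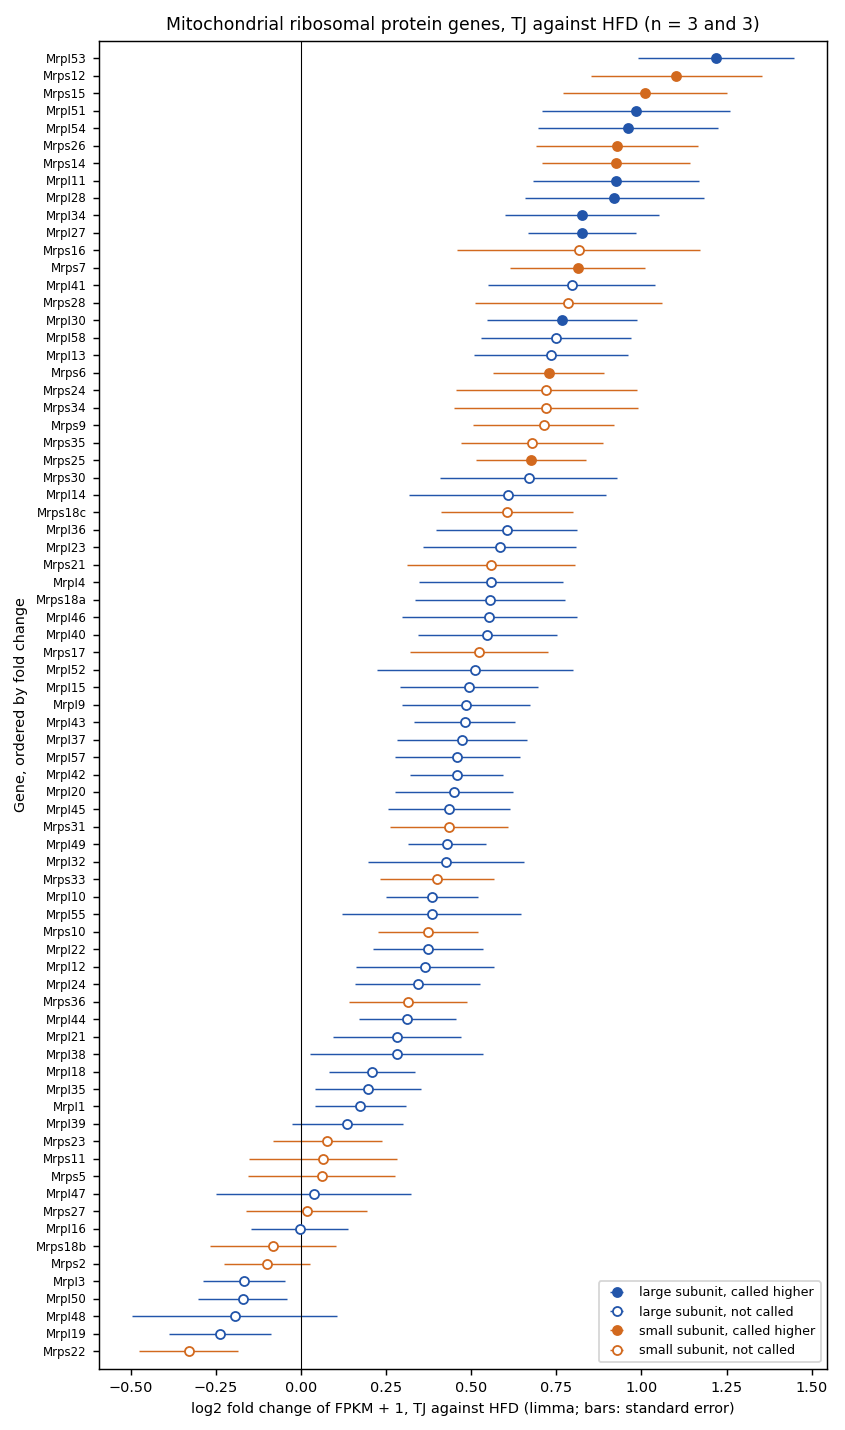
Log2 fold change of FPKM + 1 in TJ against HFD (points) with the standard error from limma (bars) for the 75 members tested, ordered by size. Colour marks the subunit and filled points the 15 members called higher. The values run from -0.33 for Mrps22 to 1.22 for Mrpl53, and 67 lie above 0.

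The promoters of members with a high fold change are shown because the nuclear factors NRF-1, GABP, YY1 and ERR are known regulators of mitochondrial genes, and RefSeq gave a promoter for 68 of the 77 members. Each sequence covers 250 bases before and 50 after the annotated start on GRCm38.p6, written 5′ to 3′ on the gene's strand, with matches to the searched motifs in capitals. Mrps26 (chr2:130563507-130563806, plus strand) holds 2 overlapping NRF-1 matches and 1 ETS match, Mrps14 (chr1:160194965-160195264, plus) 2 NRF-1 matches, Mrpl51 (chr6:125191950-125192249, plus) 1 ETS match, Mrps15 (chr4:126046678-126046977, plus) 1 ERR and 1 NF-Y match and Mrps12 (chr7:28741772-28742071, minus) 3 NF-Y matches. Mrpl53 (chr6:83108858-83109157, plus) holds no match in this window.
Mrps26: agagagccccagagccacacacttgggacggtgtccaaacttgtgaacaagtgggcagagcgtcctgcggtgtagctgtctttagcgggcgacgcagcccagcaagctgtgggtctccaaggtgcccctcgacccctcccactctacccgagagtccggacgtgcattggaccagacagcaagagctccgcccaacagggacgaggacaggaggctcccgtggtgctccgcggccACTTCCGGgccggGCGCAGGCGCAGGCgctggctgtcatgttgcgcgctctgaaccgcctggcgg
Mrps14: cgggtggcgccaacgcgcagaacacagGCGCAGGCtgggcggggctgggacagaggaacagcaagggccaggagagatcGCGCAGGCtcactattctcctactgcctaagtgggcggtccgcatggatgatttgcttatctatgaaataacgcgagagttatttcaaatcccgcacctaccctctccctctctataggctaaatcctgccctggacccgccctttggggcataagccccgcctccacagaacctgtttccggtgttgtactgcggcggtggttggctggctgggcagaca
Mrpl51: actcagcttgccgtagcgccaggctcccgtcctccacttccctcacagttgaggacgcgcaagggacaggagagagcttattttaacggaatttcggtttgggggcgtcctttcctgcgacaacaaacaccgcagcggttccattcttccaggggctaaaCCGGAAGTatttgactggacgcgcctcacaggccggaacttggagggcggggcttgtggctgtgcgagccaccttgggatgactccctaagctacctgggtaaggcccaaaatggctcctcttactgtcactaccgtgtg
Mrps15: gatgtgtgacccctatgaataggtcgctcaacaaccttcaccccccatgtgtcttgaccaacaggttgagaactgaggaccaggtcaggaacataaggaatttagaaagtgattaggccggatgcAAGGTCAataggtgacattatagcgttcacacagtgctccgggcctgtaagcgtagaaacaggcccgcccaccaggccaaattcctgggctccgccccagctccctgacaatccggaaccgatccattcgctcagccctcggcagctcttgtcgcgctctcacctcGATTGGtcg
Mrps12: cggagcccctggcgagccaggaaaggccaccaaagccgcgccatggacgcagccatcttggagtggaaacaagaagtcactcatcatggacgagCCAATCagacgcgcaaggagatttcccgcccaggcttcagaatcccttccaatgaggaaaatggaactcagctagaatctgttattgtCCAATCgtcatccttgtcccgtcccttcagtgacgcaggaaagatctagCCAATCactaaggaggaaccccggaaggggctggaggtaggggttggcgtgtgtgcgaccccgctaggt
Mrpl53: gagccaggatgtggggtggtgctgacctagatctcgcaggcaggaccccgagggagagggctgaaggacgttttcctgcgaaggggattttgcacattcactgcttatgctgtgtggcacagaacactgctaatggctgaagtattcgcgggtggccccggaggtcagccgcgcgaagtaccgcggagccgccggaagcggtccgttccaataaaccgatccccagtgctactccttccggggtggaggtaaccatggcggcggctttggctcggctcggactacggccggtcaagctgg

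The motifs, searched on both strands, were GCGCANGC for NRF-1, CCGGAAGT for ETS factors such as GABP, AAGATGGCG for YY1, AAGGTCA for ERR and GATTGG for NF-Y. The NRF-1 motif was present in 20 of 68 member promoters (29.4%), in 19.9% of promoters of the genes tested in TJ against HFD and in 10.0% of all 27025 promoters. The ETS motif was in 11 (16.2%, against 8.09% and 3.93%) and the YY1 motif in 8 (11.8%, against 3.11% and 1.49%). The ERR motif was in 4 (5.88%, against 3.17% and 4.66%) and the NF-Y motif in 13 (19.1%, against 20.6% and 16.5%). Among the 14 members called higher in TJ that had a promoter, 4 held the NRF-1 motif, 3 the ETS motif, 2 the NF-Y motif, 1 the ERR motif and 0 the YY1 motif. These are matches of letters and say nothing of binding.

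Mrpl53, a large subunit protein without a bacterial counterpart (ENSMUSG00000030037, GRCm38 chr6:83109040-83109939), had the highest fold change. Its FPKM was 23.7, 20.2 and 19.7 in the HFD libraries (mean 21.2 ± 2.20, SD, n = 3) and 49.3, 69.6 and 37.4 in the TJ libraries (52.1 ± 16.3). The groups did not overlap, and TJ replicate 2 was the highest. The log2 fold change was 1.22 ± 0.23 (SE), with an adjusted p of 0.025. Of its exon bases 88% are shared with another annotated gene on the same strand, Gm42688, so its value may hold reads of both.

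Mrps12 (chr7:28739641-28741820), homolog of the bacterial protein at the decoding centre where codon and anticodon meet, had 21.8, 16.5 and 19.3 FPKM in the HFD libraries (19.2 ± 2.63, n = 3) and 41.2, 59.9 and 30.2 in the TJ libraries (43.8 ± 15.03). The lowest TJ value was above the highest HFD value. Its log2 fold change was 1.10 ± 0.25 (adjusted p = 0.033), and it shares no exon bases with another gene. Mrps15 (chr4:126046925-126055532), another small subunit protein with a bacterial homolog, had 27.5, 23.3 and 21.8 FPKM in the HFD libraries and 47.0, 70.3 and 36.7 in the TJ libraries. The groups again did not overlap, and the log2 fold change was 1.01 ± 0.24 (adjusted p = 0.036). Mrps14, a bacterial homolog of the small subunit head, had 26.5, 16.2 and 20.4 FPKM under HFD and 39.8, 48.6 and 33.3 under TJ. Its TJ libraries were all higher, with a log2 fold change of 0.93 ± 0.22 (adjusted p = 0.035).

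Mrps26, a small subunit protein without a bacterial counterpart, had 13.2, 10.6 and 11.2 FPKM in the HFD libraries and 21.1, 33.3 and 17.3 in the TJ libraries. All TJ values were higher, with a log2 fold change of 0.93 ± 0.24 (adjusted p = 0.040). Mrps6, whose bacterial homolog lies on the platform of the small subunit, was the most abundant member in the TJ group. It had 78.0, 82.9 and 75.8 FPKM under HFD and 151, 140 and 107 under TJ. Unlike most members, it was highest in TJ replicate 1 and not in replicate 2. Its log2 fold change was 0.73 ± 0.16 (adjusted p = 0.031). The other small subunit members called higher were Mrps7, at 0.81 (adjusted p = 0.037), and Mrps25, at 0.68 (adjusted p = 0.036). Mrps25 shares 69.8% of its exon bases with Nr2c2, and because the libraries carry no strand its reads could not be told from those of that gene.

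In the large subunit, Mrpl51 had 32.7, 27.4 and 24.6 FPKM in the HFD libraries and 50.4, 86.5 and 41.2 in the TJ libraries, and Mrpl54 had 31.6, 23.2 and 26.96 against 49.6, 79.1 and 39.1. Neither has a bacterial counterpart, and for both the groups stood apart. Their log2 fold changes were 0.98 ± 0.28 (adjusted p = 0.047) and 0.96 ± 0.26 (adjusted p = 0.045). Mrpl11, whose bacterial homolog forms part of the site where translation factors hydrolyse GTP, had 7.87, 7.30 and 7.23 FPKM under HFD and 13.9, 22.4 and 10.9 under TJ. The HFD libraries lay close together and all below the TJ libraries, with a log2 fold change of 0.93 ± 0.24 (adjusted p = 0.042). Mrpl27, homolog of a bacterial protein that reaches towards the peptidyl transferase centre, had 52.0, 40.4 and 48.3 FPKM against 77.6, 96.9 and 77.3, a log2 fold change of 0.83 ± 0.16 (adjusted p = 0.026). The remaining large subunit members called higher were Mrpl28, at 0.92, Mrpl34, at 0.83, and Mrpl30, at 0.77, with adjusted p between 0.045 and 0.050. Mrpl49, at 0.43, passed the adjusted p (0.043) but not the fold change.

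**Figure D3:**
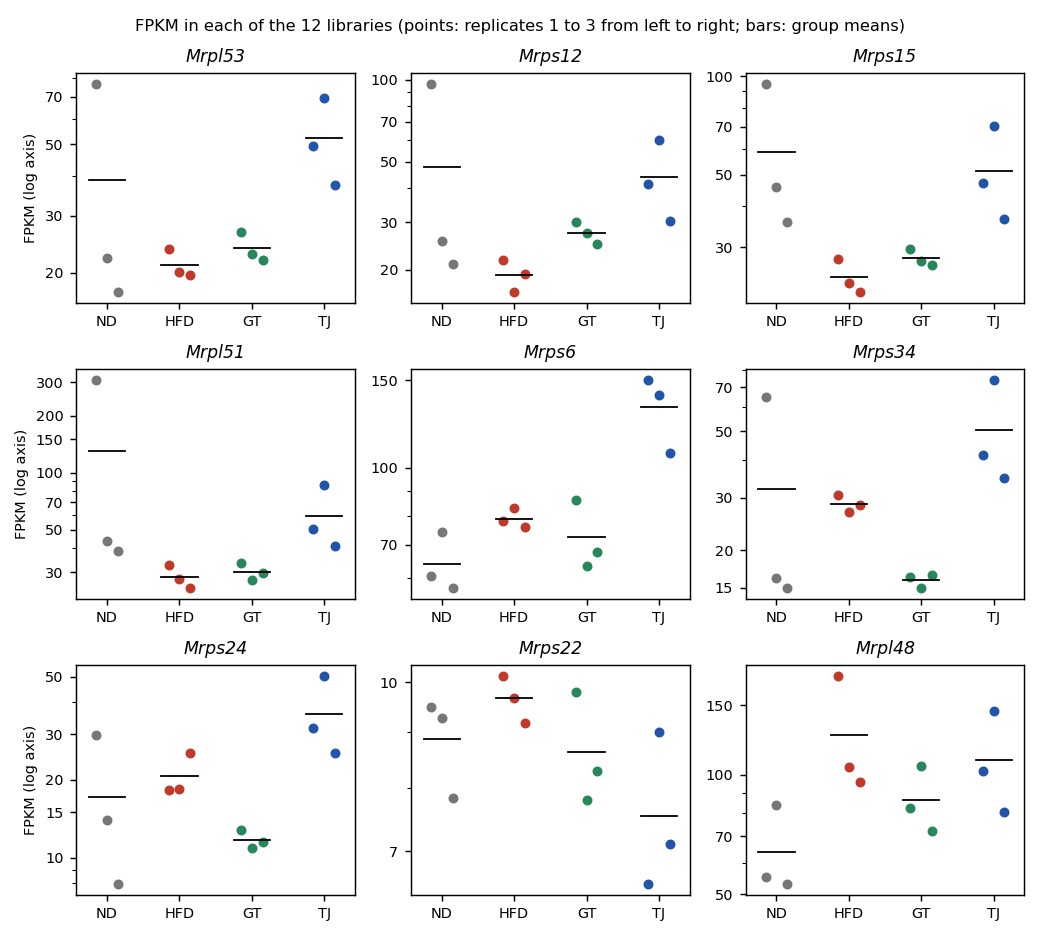
FPKM in each of the 12 libraries for 9 members (log axis; points are replicates 1 to 3 from left to right in each group and bars are group means). Mrpl53, Mrps12, Mrps15, Mrpl51 and Mrps6 were called higher in TJ than in HFD, Mrps34 and Mrps24 were called lower in GT than in HFD, and Mrps22 and Mrpl48 had no call. ND replicate 1 is the highest ND library for 7 of the 9.

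Of the members chosen by their role, Mrps12 is given above, and the other tested ones, given here and in the next paragraphs, did not pass the test in TJ against HFD. In the stalk, Mrpl10, its anchor, stood at 0.39 (adjusted p = 0.079) and Mrpl12 at 0.37 (adjusted p = 0.206). Near the peptidyl transferase centre, Mrpl3 stood at -0.17 and Mrpl16 at -0.00. Around the exit of the nascent chain and the membrane anchor, Mrpl23, Mrpl24 and Mrpl45 stood at 0.58, 0.34 and 0.44. Mrps5, a small subunit homolog near the decoding centre, stood at 0.06. Mrpl32 and Mrpl36, small zinc-binding proteins, stood at 0.43 and 0.60, and Mrpl58, a release factor built into the large subunit, at 0.75 (adjusted p = 0.052). Mrps30, which despite its name lies in the large subunit, stood at 0.67, Mrpl44 at 0.31, the pentatricopeptide repeat protein Mrps27 at 0.02, and Mrps36, also assigned to the oxoglutarate dehydrogenase complex, at 0.31.

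The 3 Mrps18 paralogs occupy different places in the ribosome. Mrps18a, of the large subunit, had 26.3, 22.2 and 22.5 FPKM in the HFD libraries and 33.1, 48.6 and 26.9 in the TJ libraries, and Mrps18c, of the small subunit, had 28.5, 26.2 and 29.9 against 40.03, 57.6 and 35.4. Mrps18b, also of the small subunit, had 11.02, 8.83 and 9.98 FPKM against 7.09, 11.3 and 10.01. For Mrps18a and Mrps18c the TJ libraries were all above the HFD libraries, and for Mrps18b the groups overlapped. The log2 fold changes were 0.55 (adjusted p = 0.105), 0.61 (adjusted p = 0.064) and -0.08 (adjusted p = 0.745).

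At the low end, Mrps22, a small subunit protein without a bacterial counterpart (chr9:98588730-98601660), had 10.1, 9.68 and 9.17 FPKM in the HFD libraries and 6.53, 9.001 and 7.10 in the TJ libraries. All TJ values lay below all HFD values, but by little in TJ replicate 2. The log2 fold change was -0.33 ± 0.15 (adjusted p = 0.133) and the exact two-sided permutation p was 0.1, the smallest that 3 against 3 libraries allow. Mrpl48, the most abundant member under HFD, had 178, 105 and 95.9 FPKM there and 102, 145 and 80.4 under TJ. HFD replicate 1 was far above the other HFD libraries, the groups overlapped, and the log2 fold change was -0.19 ± 0.30 (adjusted p = 0.633). Mrpl19 stood at -0.24 (adjusted p = 0.258) and Mrpl50 at -0.17 (adjusted p = 0.335).

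Both subunits and both evolutionary origins were on the higher side in TJ. The median log2 fold change was 0.47 over 48 large subunit members, 8 of them called, and 0.61 over 27 small subunit members, 7 of them called. It was 0.54 over 42 members grouped by their numbering with the bacterial homologs, 10 called, and 0.46 over the 33 others, 5 called. Mrpl47 and Mrps28 stand among the 33 although they have bacterial counterparts under other numbers. Over the 43 members that share no exon bases with another gene, the median was 0.47 and 8 were called. Within a library, the ratio of the median small subunit FPKM to the median large subunit FPKM was 1.18, 1.16 and 1.09 in the TJ libraries, 1.04, 0.937 and 1.06 in the HFD libraries, 0.809, 0.948 and 0.905 in the GT libraries and 0.972, 0.956 and 0.926 in the ND libraries. The TJ ratios were the 3 highest of the 12. No test of the difference between the subunits was made.

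Most members are short, and fold changes in TJ depended on length. The longest coding transcript had a median of 1339 nt over the members and 3026 nt over all genes tested. The Spearman correlation of the TJ against HFD log2 fold change with transcript length was -0.357 across 12725 genes and -0.260 across the 75 members. Genes measured in the same 6 libraries are no replicates, so these values are descriptions. It was -0.524 and -0.353 for TJ against GT and -0.024 and 0.065 for GT against HFD. The members were therefore set beside other genes of the same length class, the last of which has no upper limit. Under 750 nt the median log2 fold change in TJ against HFD was 0.57 for 10 members and 0.44 for the 384 other genes, and from 750 to 1000 nt it was 0.72 for 13 members and 0.41 for the others. From 1000 to 1500 nt it was 0.36 for 21 members and 0.27 for the others, and from 1500 to 2500 nt 0.43 for 11 members and 0.05. Over 2500 nt it was 0.51 for 20 members, 17 of them above 0, and -0.28 for 7826 other genes.

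In all 5 length classes the members' median was the higher, by the widest margin over 2500 nt. The share called higher did not follow in every class: from 1000 to 1500 nt it was 4.76% of members (1 of 21) against 14.3% of other genes, and over 2500 nt 25% of members (5 of 20) against 4.05%. The 5 called members over 2500 nt were Mrpl11, Mrpl51, Mrps14, Mrps25 and Mrps26. For Mrpl11 that length depends on the transcript chosen: its longest has 3045 nt and the median over its transcripts 663 nt. For Mrps14 these are 2999 and 1893 nt. For Mrpl51, Mrps25 and Mrps26 both are 3427, 6073 and 4278 nt. When the trend of each library with length was removed before the fit, 16 members were called higher and 0 lower in TJ against HFD. The background then was 11.4% of all genes called higher and 7.38% lower, so that among all genes higher calls outnumbered lower calls, the opposite of the values as deposited. Of these members, 14 were among the 15, with Mrpl58 and Mrps35 gained and Mrps6 lost. The members' median was then 0.39 against 0.05 for all genes, and their correlation with length 0.189. Over 2500 nt the 20 members then had a median of 0.83, with 20 above 0 and 7 called higher (35%). The other genes of that class had a median of 0.02, and 10.1% were called higher. With the median length of a gene's transcripts in place of the longest, 20 members were called higher and their median was 0.52. Over all genes 1526 were called higher and 966 lower in that fit.

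**Figure D4:**
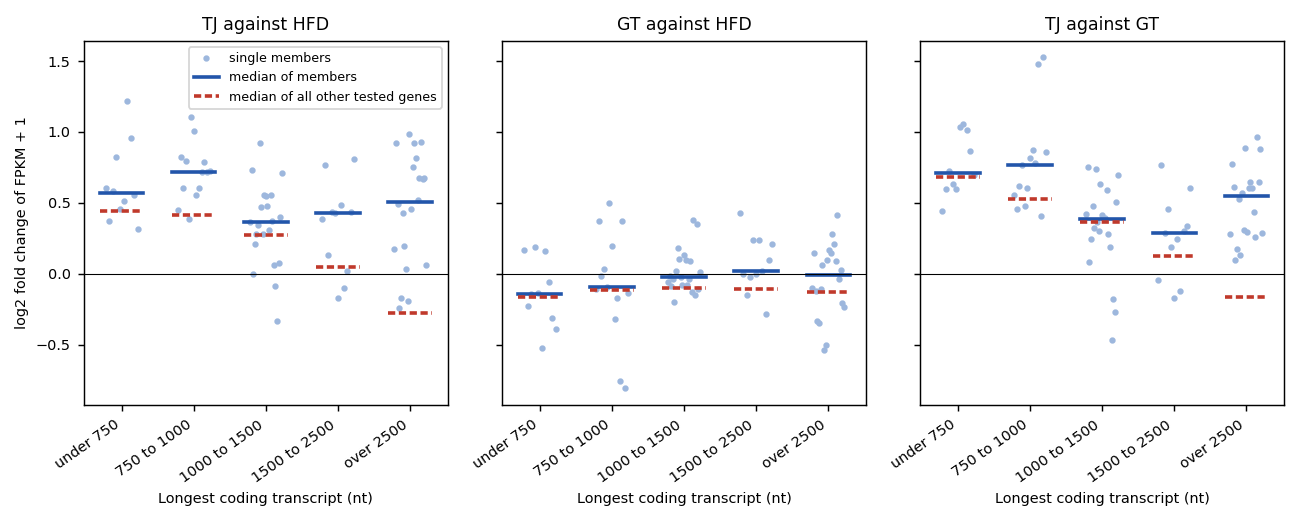
Log2 fold change of FPKM + 1 for the 75 members by class of longest coding transcript in 3 comparisons. Points are members, solid lines their medians and dashed lines the medians of all other genes tested. In TJ against HFD and TJ against GT the dashed line falls with length, from 0.44 to -0.28 and from 0.68 to -0.16, whereas the members over 2500 nt keep medians of 0.51 and 0.55.

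The GT group tested a second supplement against the same HFD libraries. The direction of the members depended on the scaling, which moved the median of all genes as well. As deposited 34 of 75 were above 0 (45.3%, against 34.6% of all genes), and their median was -0.02 against -0.12 for all genes. Under median-of-ratios scaling and under quantile normalization 53 were above 0 with a median of 0.10, and with the length trend removed 61 were above 0 (81.3%, against 52.8% of all genes) with a median of 0.13. The median of all genes was -0.006, 0.026 and 0.022 in these fits, so that the members' median was the higher in each. In the limma test 0 members were called higher and 2 lower, Mrps34 and Mrps24, against 1.83% and 1.81% of all genes. Under either scaling 1 member was called higher, Mrps12, and 1 lower, Mrps34, and median-of-ratios scaling called 400 genes higher and 145 lower against 233 and 231 as deposited. Neither call was kept without HFD replicate 2 or 3 or GT replicate 2 or 3, and that of Mrps24 was also lost without HFD replicate 1. Few genes of any kind were called in these fits. Over all genes, 2 were called higher and 3 lower without HFD replicate 2, and 2 and 5 without HFD replicate 3. These numbers were 1 and 3 without GT replicate 2, 2 and 3 without GT replicate 3, and 39 and 27 without HFD replicate 1. Both member calls were lost with no filter on low values, with all 12 libraries in the fit and with the replicate number as a block. Over the whole table these fits called 2 genes higher and 3 lower, 0 and 1, and 1 and 4. At an unadjusted p under 0.05, 9 members were higher and 9 lower, against 9.98% and 19.3% of all genes. These counts were 17 and 5 under median-of-ratios scaling, 16 and 5 under quantile normalization and 23 and 3 with the length trend removed. Over all genes, both directions together, they were 3744 as deposited and 3549, 3476 and 3603 in these fits. Quantile normalization called 405 genes higher and 162 lower, and removal of the length trend 466 and 138. Without single libraries between 4 and 11 members were higher and between 3 and 11 lower, and with all 12 libraries in the fit 0 were. Over all genes these fits gave 2466 to 4115 and 543, both directions together. The GT libraries were all above the HFD libraries for 10 members, against 12.3% of all genes, and all below for 14, against 24.4%. Adipocyte markers had a median log2 fold change of 0.65 and macrophage markers of -1.08 in this comparison, stromal progenitor markers of -0.75, with 3 of 4 called lower, and germ cell markers of -1.97, and their part in these values was not tested.

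Mrps34, a small subunit protein without a bacterial counterpart (chr17:24895116-24897502), had 30.7, 26.9 and 28.3 FPKM in the HFD libraries (28.6 ± 1.94, n = 3) and 16.3, 14.95 and 16.5 in the GT libraries (15.9 ± 0.856). Its GT libraries were tight and far below the HFD libraries. The log2 fold change was -0.81 ± 0.09 (adjusted p = 0.030). Of its exon bases 77.8% are shared with Mapk8ip3 and Nme3, which lie on opposite strands, so its value may hold reads of either gene.

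Mrps24, homolog of a bacterial protein at the entry of the messenger RNA channel (chr11:5703983-5715680), had 18.3, 18.5 and 25.4 FPKM in the HFD libraries and 12.8, 10.9 and 11.5 in the GT libraries. The groups did not overlap, and the log2 fold change was -0.76 ± 0.14 (adjusted p = 0.044). It shares 15.4% of its exon bases with Urgcp. The highest fold changes of GT against HFD belonged to Mrps12, at 0.50 ± 0.13 (adjusted p = 0.068), Mrpl10, at 0.43 ± 0.09 (adjusted p = 0.052), and Mrps25, at 0.42 (adjusted p = 0.077), none of which passed. Mrpl10 had 22.8, 22.7 and 24.97 FPKM in the HFD libraries and 31.7, 29.9 and 34.02 in the GT libraries, which did not overlap.

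Compared directly, TJ and GT share no library. The members' median log2 fold change was 0.50 against -0.03 for all genes, and 69 of 75 were above 0, against 46.8% of all genes. The members' median was 0.30 without TJ replicate 2, 0.67 without TJ replicate 3 and 0.23 with the length trend removed. In limma 0 members were called in either direction, against 0.139% of all genes higher and 0.00821% lower. At an unadjusted p under 0.05, 40 members were higher and 1 lower, against 14.9% and 9.66% of all genes. These counts were 20 and 4 with the length trend removed, and 25 members were higher without GT replicate 2, 26 without GT replicate 3 and 13 with all 12 libraries in the fit. Over all genes, both directions together, 2996 had an unadjusted p under 0.05, and in these fits 2665, 1449, 2120 and 755. All TJ libraries were above all GT libraries for 48 members, against 19.5% of all genes, and below for Mrps18b and Mrps2, against 14.9%. Summed adipocyte markers were 24059 to 27622 FPKM in the GT libraries and 29305 to 59285 in the TJ libraries, and summed stromal progenitor markers 41.4 to 44.6 and 28.6 to 39.3, and their part in these values was not tested. Mrps34 had 41.6, 74.3 and 35.01 FPKM in the TJ libraries, and Mrps24 31.7, 50.6 and 25.3. By group mean both were lowest in GT and highest in TJ among the high-fat groups, although the TJ and HFD libraries of Mrps24 overlapped. Their log2 fold changes of TJ against GT were 1.53 ± 0.26 and 1.48 ± 0.24, each with an adjusted p of 0.073. Without TJ replicate 3 both were called, and likewise without TJ replicate 2, at 1.21 each with an adjusted p of 0.017 for Mrps34 and 0.029 for Mrps24. At the other end, Mrps18b had 14.8, 13.6 and 11.4 FPKM in the GT libraries against the TJ values given above, a log2 fold change of -0.46 ± 0.19 (adjusted p = 0.192).

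The HFD against the ND group asked what the high-fat diet alone changed. The members had a median log2 fold change of -0.30 against 0.07 for all genes, and 18 of 75 were above 0, against 53.2% of all genes. The median was -0.57 without ND replicate 3, and -0.47 under median-of-ratios scaling, with 12 members above 0. Removing the length trend gave a median of 0.18 and moved short and long members apart: those under 750 nt then stood at a median of 0.59 and those over 2500 nt at -0.68, and the Spearman correlation with length went from -0.044 to -0.701. With the median length of a gene's transcripts in place of the longest, the median was -0.03 and 36 were above 0. In limma 0 were called in either direction, against 1.73% of all genes higher and 0.0416% lower. At an unadjusted p under 0.05, 1 was higher and 2 lower, against 9.84% and 1.75% of all genes. Summed macrophage markers were 63.9 to 544 FPKM in the ND libraries and 3811 to 5608 in the HFD libraries, and without ND replicate 1 all 8 were called higher and 5 of 8 adipocyte markers lower. Their part in the members' values was not tested. With the replicate number as a block 0 genes of the whole table were called in either direction. Without ND replicate 1 the median was -0.01 against -0.02 for all genes and 37 members were above 0, and at an unadjusted p under 0.05 4 members were higher and 7 lower, against 2680 and 1527 of 13661 genes. In that fit, which leaves ND with 2 libraries, Mrps34 was called higher at 0.84 (adjusted p = 0.012) and Mrps15 lower at -0.72, against 11% and 4.34% of all genes. The ND values of Mrps34 were 65.1, 16.2 and 14.96 FPKM and those of Mrps15 were 94.9, 45.7 and 35.8, in each case with replicate 1 far above the others.

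Over the members, ND replicate 1 was more than 2-fold above the mean of ND replicates 2 and 3 for 40 and below that mean for 17. The ratio ran from 0.169 for Mrpl50 to 16.3 for Mrpl54, with a median of 2.15. The lowest fold changes of HFD against ND, Mrpl51 at -1.49 (adjusted p = 0.494), Mrpl37 at -1.36 and Mrpl47 at -1.24, belonged to members of which that library had many times the level of the others. Mrpl51 had 309, 43.6 and 38.6 FPKM in the ND libraries, Mrpl37 278, 29.1 and 34.5 and Mrpl47 52.2, 3.61 and 4.28. Without that library the log2 fold changes were -0.53 (adjusted p = 0.086), -0.33 and -0.09. At the high end Mrpl48 stood at 0.95 (adjusted p = 0.412), Mrps33 at 0.76 and Mrpl50 at 0.65. Mrpl48 had 55.1, 83.7 and 52.9 FPKM in the ND libraries, Mrps33 7.63, 23.6 and 17.7 and Mrpl50 3.22, 20.4 and 17.7. For Mrps33 and Mrpl50 replicate 1 was far below the others, and without it Mrps33 stood at 0.32, Mrpl50 at -0.10, on the other side of 0, and Mrpl48 at 0.86 (adjusted p = 0.163).

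Other genes of mitochondrial translation were set beside the members in TJ against HFD. Of 6 tested mitoribosomal proteins with other symbols 0 were called, with a median of 0.39. Among them, Aurkaip1 stood at 0.84, the GTP-binding protein Dap3 at 0.38 and Ptcd3 at -0.01. Of 13 mitochondrial translation factors 0 were called, with a median of 0.16, and of 17 mitochondrial aminoacyl-tRNA synthetases 0, with a median of 0.07. The synthetase Lars2 had 14587, 358 and 147 FPKM in the ND libraries, 108, 164 and 529 in the HFD libraries and 3308, 5499 and 371 in the TJ libraries. TJ replicates 1 and 2 were far above and TJ replicate 3 inside the HFD range (log2 fold change 3.16, adjusted p = 0.068). Of 22 genes of mitoribosome assembly and ribosomal RNA modification 2 were called higher, Mpv17l2 at 0.84 (adjusted p = 0.032) and Ngrn at 0.83, and the median was 0.17. Their share called, 9.09%, was near the 7.41% of all genes. Of 9 tested regulators of nuclear mitochondrial genes 0 were called, with a median of -0.12 that turned to 0.18 with the length trend removed. Among the genes of the factors whose motifs were searched, Nrf1 stood at -0.25, Gabpa at -0.73, Yy1 at -0.12 and Esrra at 0.11.

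Among the genes of the respiratory chain and ATP synthase, which these ribosomes serve, 31 of 83 nuclear subunits were called higher, with a median of 0.75, and of 12 messenger RNAs of mitochondrial DNA 5, with a median of 0.77. Of 79 cytosolic ribosomal proteins, which build the ribosomes outside mitochondria, 1 was called higher, although their median of 0.52 was close to that of the members. With the length trend removed the medians were 0.64 for the nuclear subunits, 0.60 for the mitochondrial messenger RNAs and 0.32 for the cytosolic ribosomal proteins, beside 0.39 for the members and 0.05 for all genes. The number called was then 35, 2 and 8. No test of these lists against each other was made.

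**Figure D5:**
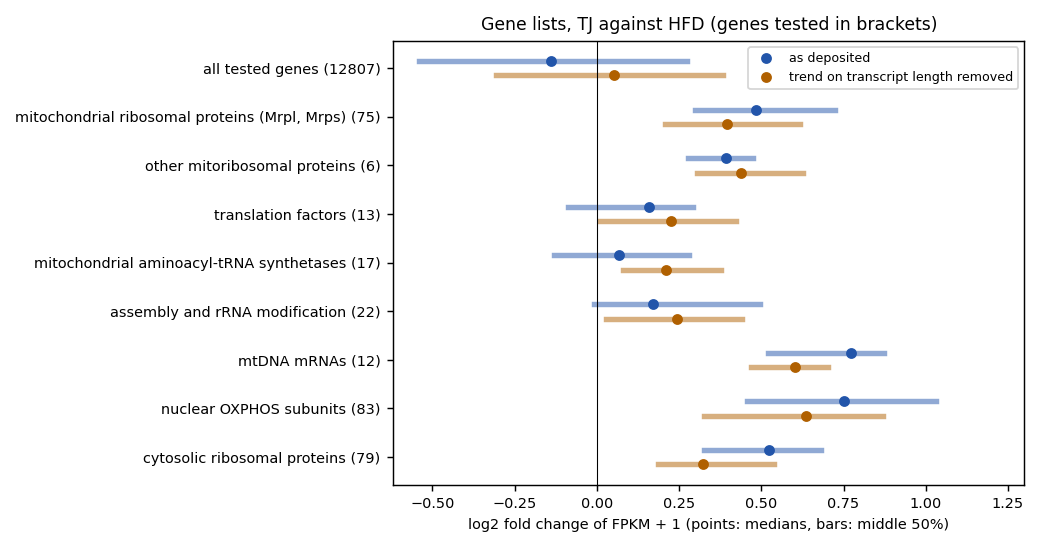
Log2 fold change of FPKM + 1 in TJ against HFD for the members, related gene lists and all genes tested, as deposited (blue) and with each library's trend on transcript length removed (orange). Points are medians and bars the middle 50% of genes. The members' median was 0.48 and then 0.39, below that of the nuclear subunits of the respiratory chain (0.75 and 0.64), while the median of all genes was -0.14 and then 0.05.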

How the data were processed

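Total RNA of eWAT was made into TruSeq libraries, which keep no strand, and sequenced as paired 100-base reads. The authors filtered the reads, mapped them with STAR (2.4.0 per the labels) to Ensembl release 72 and deposited FPKM from Cufflinks 2.1.1, correcting for multireads and fragment bias and masking noncoding regions. The human genome is named in the methods, whereas the identifiers are mouse. Read counts were not used here, so counting error is unknown, and depth was approximated from the steps of FPKM over 2315 single-transcript genes. The HFD and TJ libraries came from separate mice. For ND and GT the sources do not say so, and p-values then measure only the spread between libraries, which may be technical.

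GENCODE mouse release 21 gave symbols (for 22671 identifiers), coordinates (GRCm38) and lengths, and RefSeq gave promoters (GRCm38.p6). Each comparison was fitted with limma 3.58.1 in R 4.3.3 (lmFit, eBayes with trend) on log2(FPKM + 1) of its 6 libraries, over all genes averaging 1 FPKM or more, with Benjamini-Hochberg adjustment over all genes. A fold change on this scale understates that of low genes. The comparisons of TJ, GT and ND with HFD share the HFD libraries. The script was tested on simulated data. Members, lists and tests were chosen with earlier results of these data known. Genes named were the highest and lowest in each comparison, those at the ends of level and length, those of named roles and every member called where at most 5 were. Mrpl27, Mrpl28, Mrpl30, Mrpl34, Mrps7, Mrpl49, Mrps2, Mrps28 and Mrps35 fall outside this rule and were added with their values known.

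The alternatives were a pseudocount of 0.1, no filter or a mean of 5 FPKM, 2 other scalings, all 12 libraries, no trend, no minimum fold change, loess removal of length or GC trends (span 0.5), the replicate number as a block and each library left out. The correlation of same-numbered deviations was 0.55, 0.34 and 0.12 for HFD and ND, each over 0.1, so the numbers were taken to pair these groups by this check alone, although HFD replicate 3 and ND replicate 2 reached 0.63. With that block 0 members were called.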

Additional observations from a re-analysis of the deposited data

How the results depend on the processing

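The number of members called higher in TJ against HFD was 15. It was 0 with no filter on low values or with all 12 libraries in the fit, 9 without the mean-variance trend and 24 with the GC trend removed. Over all genes 840 were called higher and 1228 lower without the mean-variance trend, and 1497 and 1029 with the GC trend removed. These numbers were 198 and 184 with no filter and 1 and 0 with all 12 libraries. Without single libraries the number of members called higher ranged from 0 to 35, and 0 members were called lower in each fit. The median log2 fold change stayed above 0 under every alternative run, from 0.30 to 0.65 without single libraries. Median-of-ratios scaling moved the median of all genes from -0.14 to -0.01 and that of the members to 0.62.

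The replicate number was also used as a block. For TJ against HFD the correlations of same-numbered deviations were -0.03, -0.05 and 0.23, so the libraries share only a number. With the block 2 members, Mrpl53 and Mrps15, were called. For GT against HFD 0 members were called with the block, and 0 with the block and the length trend removed. Over the whole table the block took the genes called in TJ against HFD from 949 higher and 1417 lower to 429 and 769, and in HFD against ND from 249 and 6 to 0 and 0. In GT against HFD it took them from 233 and 231 to 1 and 4, and with the length trend also removed 0 and 0 were called. The block changed no other count of members called except that with the length trend removed, which gave 10 in TJ against HFD, 9 of them among the 15.

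For GT against HFD the 2 members lower became 0 with no filter or with all 12 libraries and 1 under median-of-ratios scaling, quantile normalization, no trend, or removal of the trend on length, median transcript length, GC content, or length and GC. Without single libraries the count ranged from 0 to 3, while over all genes 1 to 375 were called higher and 3 to 732 lower. Members called higher numbered 1 under median-of-ratios scaling, quantile normalization, GC removal and median length removal, and 2 under removal of length or of length and GC. Over all genes 400 to 466 were called higher in these fits and 133 to 162 lower, against 233 and 231 as deposited. The members' median turned from -0.02 to 0.102 under median-of-ratios scaling and 0.1 under quantile normalization, to 0.131 with the length trend removed, with and without the block, and with the median length trend removed, to 0.132 for GC and to 0.165 for both. The median of all genes moved from -0.122 to -0.006 under median-of-ratios scaling and to between 0.022 and 0.029 in the other fits. Without single libraries the members' median ranged from -0.089 to 0.051.

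For HFD against ND the median turned from -0.30 to 0.179 with the length trend removed, with or without the block, and to 0.190 with length and GC removed, but stayed below 0, at -0.029, with the median length trend removed. Without single libraries between 0 and 1 member was called in each direction. For TJ against GT the median moved from 0.50 to 0.227 with the length trend removed, with or without the block, to 0.219 with length and GC and to 0.363 with median length. Without single libraries it ranged from 0.302 to 0.666, lowest without TJ replicate 2 and highest without TJ replicate 3, and between 0 and 2 members were called higher. The removals by median length and by length and GC together were chosen after seeing the data. The cause of these changes was not tested. FPKM gives no counting error, and 3 libraries per group limit every comparison.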
